A study of Mus musculus with 2 samples.

Results

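The ISG15 conjugation pathway was followed in 2 scRNA-Seq libraries of bone marrow-derived monocytes (BMDMs) through 5 genes, Isg15, Uba7, Ube2l6, Herc6 and Usp18, each found by its symbol as 1 row among the 32544 genes of the table. Cells were kept with at least 500 detected genes and at most 10% mitochondrial UMIs (unique molecular identifiers, 1 per captured mRNA molecule), which left 6269 of 6455 control and 5663 of 5865 LysM-Cre;Arid1afl/fl barcodes. Both cultures came from femoral marrow and received M-CSF at 50 ng/ml together with RANKL at 100 ng/ml, the cytokines that drive monocytes towards osteoclasts (OCs), and were taken 24 h after RANKL. The study's methods give marrow donors of 4 to 6 weeks of age, and the labels give the control only as such, without its alleles. In the LysM-Cre;Arid1afl/fl genotype a recombinase made from the lysozyme M locus removes exons 5 to 6 of Arid1a, which encodes a DNA-binding part of the BAF remodeler of chromatin, in myeloid cells, so cells that do not express it keep the gene. How many animals went into a library was not given in the sources used here, and with 1 library per genotype no difference could be tested over replicates. Values in parentheses are 95% intervals that cover counting error only, and they refer to the 2 libraries rather than to the genotypes.

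ISG15 is a small ubiquitin-like protein that interferon induces strongly. Like ubiquitin it is joined to lysines of other proteins by a chain of enzymes: UBA7 activates it (E1), UBE2L6 carries it (E2), and in the mouse HERC6 is the main ligase (E3). USP18 takes it off again, and apart from that activity it binds the interferon receptor chain IFNAR2 and dampens its signalling. Free ISG15 is also secreted and acts on lymphocytes through the integrin LFA-1. All of the genes are themselves interferon targets, switched on through the interferon-stimulated response element, a DNA motif built on GAAA repeats.

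The promoters of the members were read for that motif (RefSeq, GRCm38.p6, 250 bases before to 50 after the gene start). The table held 4 of the 5 members: Isg15, Uba7, Ube2l6 and Herc6. The letters GAAA, any 2 bases and again GAAA were searched on both strands, and 1131 of 32851 promoters (3.44%) held them. Isg15 held 3 overlapping matches on its own strand, at bases -78 to -69, -72 to -63 and -66 to -57 from the start, which run together as 1 block of GAAA repeats. It is shown with the promoter of Ube2l6, the E2, as an example of the 3 members with a promoter in which these letters were not found. Capitals mark the matches, both sequences are given 5′ to 3′ in the direction of transcription, and Isg15 is at chr4:156200769-156201068 (minus strand) and Ube2l6 at chr2:84798578-84798877 (plus strand).
Isg15: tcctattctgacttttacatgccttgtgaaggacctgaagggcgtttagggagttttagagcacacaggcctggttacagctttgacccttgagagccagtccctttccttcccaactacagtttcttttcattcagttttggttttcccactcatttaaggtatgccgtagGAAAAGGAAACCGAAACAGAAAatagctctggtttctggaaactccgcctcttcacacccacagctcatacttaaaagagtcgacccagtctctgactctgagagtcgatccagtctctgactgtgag
Ube2l6: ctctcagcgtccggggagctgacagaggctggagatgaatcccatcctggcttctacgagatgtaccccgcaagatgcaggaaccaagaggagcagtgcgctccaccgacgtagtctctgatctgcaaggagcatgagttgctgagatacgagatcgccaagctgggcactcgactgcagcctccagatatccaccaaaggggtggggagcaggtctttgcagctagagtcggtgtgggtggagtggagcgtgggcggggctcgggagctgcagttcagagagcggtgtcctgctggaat

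The windows of Uba7 and Herc6 held no match to it either, and none of the 4 held TTCNNNGAA, the gamma-activated site (8.30% of all promoters). Among 40 other interferon-stimulated genes, 31 had a promoter in the table and 17 of these (54.8%) held the GAAA pair. That count is by gene, and by gene 1079 of all 27025 (3.99%) held the pair. Of 28 genes of the SUMO, NEDD8 and UFM1 pathways with a promoter, 0 held it. These counts describe letters in a window of 300 bases and say nothing of binding.

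Arid1a itself gave 8490 control and 2685 mutant UMIs, 51.9 against 20.4 counts per 1000000 UMIs (CPM), a log2 ratio of -1.35 (-1.41 to -1.28), and a transcript of the recombined allele that keeps its 3′ end would still be counted. The control cells held 163618835 UMIs and the mutant cells 131469887, with medians of 23978 and 21734 per cell. The libraries shared 8 barcodes. Of 8 monocytic markers, Lyz2, the gene at the locus that carries the Cre, was at 10803 and 5432 CPM (log2 ratio -0.99) and Cd14 at -0.16, while the other 6 ranged from 0.46 for BC005537 to 2.33 for Fcgr1. Neutrophil markers (5 genes) were at 267 and 2000 CPM and class II markers (4 genes) at 28.7 and 116 CPM, so both differed between the libraries. Their part in the whole-library ratios was measured by leaving such cells out, as given with the cell states. The lists for plasmacytoid dendritic cells, lymphocytes and mast cells summed to at most 2.18 CPM in either library.

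All 5 members were more than 2-fold higher in the mutant library. Of 5219 genes whose mean over the libraries reached 20 CPM, 295 (5.65%) passed 2-fold in that direction and 59 (1.13%) in the other, and the median log2 ratio was 0.022. Uba7 and Herc6 reached that mean only through the mutant library. Isg15, the modifier, was counted with 26320 and 88590 UMIs, or 161 CPM (159 to 163) and 674 CPM (669 to 678), a log2 ratio of 2.07 (2.05 to 2.09). Usp18, the deconjugating protease, was at 20.5 and 87.9 CPM, a log2 ratio of 2.10 (2.05 to 2.16). The interval of Usp18 holds the value of Isg15, so the modifier and its protease differed between the libraries by a like amount within counting error. The spread between cells is not in these intervals.

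Herc6, the ligase, stood below both of them. It was at 13.7 CPM (13.2 to 14.3) and 48.0 CPM (46.8 to 49.2), a log2 ratio of 1.81 (1.74 to 1.88). Ube2l6, the E2, was at 46.3 and 124 CPM, a log2 ratio of 1.42 (1.38 to 1.46). Uba7, the E1, was at 12.7 and 32.4 CPM, a log2 ratio of 1.35 (1.28 to 1.43). In these intervals of counting error, the E1 and E2 overlapped and lay apart from the ligase, which in turn lay apart from Isg15 and Usp18. The median over the 4 enzymes was 1.61 (1.57 to 1.65), and Isg15 exceeded it by 0.45 log2 units (0.41 to 0.50). By rank among the 5219 genes, Usp18 was 53rd from the highest ratio, Isg15 58th, Herc6 77th, Ube2l6 141st and Uba7 157th. Herc6 and Uba7 are ranked only because their mutant level lifted the mean to 20 CPM. A gene as low in the control and not higher in the mutant library is not among the 5219.

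**Figure D1:**
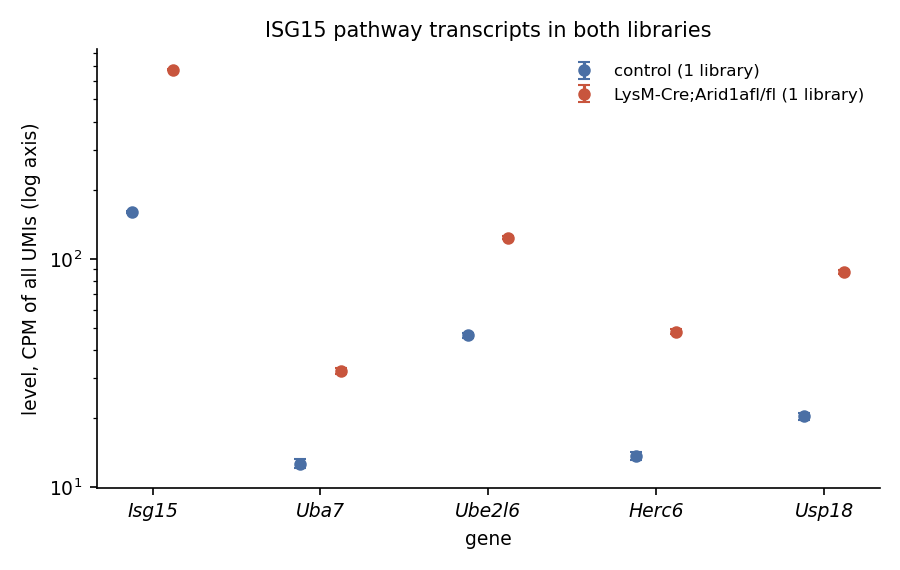
Level of each ISG15 pathway gene in the control and the LysM-Cre;Arid1afl/fl library, in CPM on a log axis, with 95% exact Poisson intervals as bars (counting error only, 1 library each). All 5 genes are higher in the mutant library, from 2.56-fold for Uba7 to 4.30-fold for Usp18, and levels are not comparable between genes, since capture at the 3′ end differs between transcripts.

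The members lie on 4 chromosomes of GRCm39 (GENCODE M39), matched by identifier. Isg15 (ENSMUSG00000035692) is at chr4:156283883-156285303 on the minus strand, a gene of 2 exons. Usp18 (chr6:121222848-121247877) and Herc6 (chr6:57557932-57642597) share a chromosome without being neighbours. Uba7 is at chr9:107852704-107861262 and Ube2l6 at chr2:84628630-84640783. All 4 enzymes are on the plus strand. Each is crossed by at least 1 other counted gene, and whether counting used the strand was not given in the sources used here. These partners were low: Inka1, across from Uba7, had 439 UMIs in the control and fewer, 197, in the mutant library, and the other 4 partners had at most 10 UMIs in either library.

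Other genes tied to ISG15 differed less between the libraries. Of 10 further genes with a reported role in ISG15 ligation or removal, 5 reached 20 CPM, and 0 of these passed 2-fold in either direction (median log2 ratio -0.20). Among all 5219 genes 5.65% did so upwards and 1.13% downwards, so 0 of 5 is near that share. Trim25, itself an interferon target and a ligase described for ISG15, had the highest value, 70.6 and 103 CPM, a log2 ratio of 0.55 (0.51 to 0.58). Usp14 (-0.38) and Usp5 (-0.25), which can bind or cleave ISG15 but act mainly on ubiquitin, had the lowest of the 5. Ube2e2, a ubiquitin E2, was under 20 CPM and lower in the mutant library, at 14.7 and 7.20 CPM (-1.03, -1.14 to -0.92). The Herc6 relatives Herc1 and Herc2 were at 0.13 and 0.18. Of the subunits of LFA-1, the receptor for secreted ISG15, Itgal was at 16.2 and 34.4 CPM, a log2 ratio of 1.08 (1.01 to 1.15), and Itgb2 at 0.87 (0.85 to 0.89).

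Next, the enzymes were set beside their counterparts for other modifiers, which work by the same E1, E2 and E3 order. Of 9 ubiquitin and FAT10 genes at 20 CPM, 13 of the SUMO, 9 of the NEDD8, 5 of the UFM1 and 8 of the ATG8 and ATG12 systems, 0 passed 2-fold in either direction, and their median log2 ratios ran from -0.18 for SUMO to 0.15 for ATG8 and ATG12. Over all 5219 genes, 5.65% passed 2-fold higher and 1.13% lower, so a count of 0 in lists this short is near that share. Uba1, the E1 of ubiquitin, was at 108 and 130 CPM (log2 ratio 0.26). Ube2l3, the closest relative of Ube2l6 and a ubiquitin E2, was at 414 and 422 CPM (0.028). The largest value among them was 0.76, for the SUMO protease Senp2. The minimum of 20 CPM is a mean over the libraries, and Uba7 and Herc6 reached it only through the mutant library. Without a minimum, the lists hold 11, 17, 10, 8 and 14 genes, and 0 of those with UMIs in both libraries passed 2-fold in either direction.

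**Figure D2:**
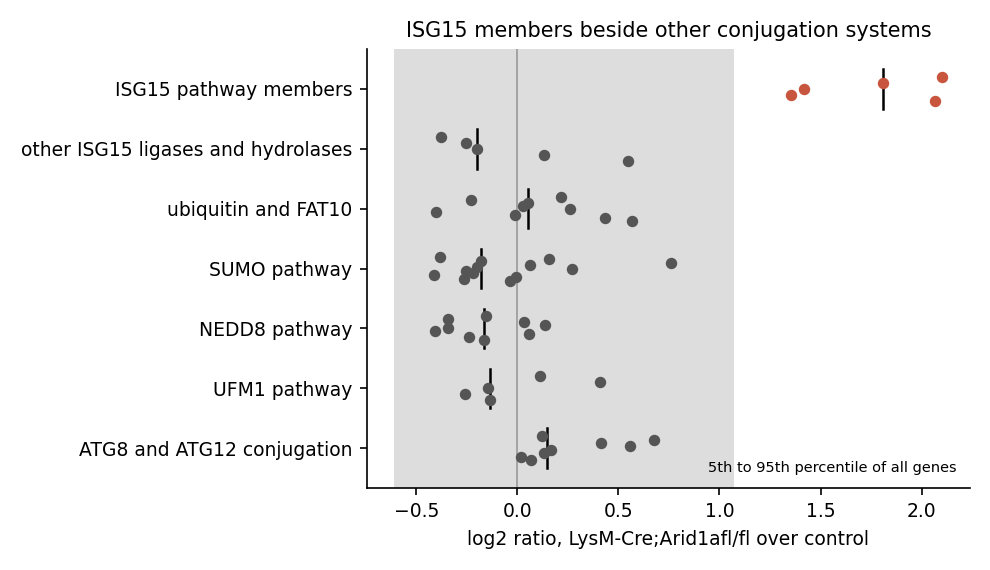
Log2 ratio of LysM-Cre;Arid1afl/fl over control for single genes that reached 20 CPM on average (points) and the median (black line) in the ISG15 members, other ISG15 ligases and hydrolases, and 5 other conjugation systems. The grey band is the 5th to 95th percentile of all 5219 genes (-0.61 to 1.07), and only the ISG15 members, at 1.35 to 2.10, lie to the right of it.

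The members shared their direction with interferon targets at large. Of 40 other interferon-stimulated genes, 38 reached a mean of 20 CPM. Of these, 33 were past 2-fold higher and 0 lower, beside 5.65% and 1.13% of all 5219 genes. Some of the 38, such as Ifi44 and Stat2, reached 20 CPM only through the mutant library. Without a minimum level the counts were 35 and 0 of 40, for which no share over all genes was taken. The median log2 ratio of the 38 was 1.54, from 0.68 for Ifitm3 to 4.13 for Ifi44. Isg15, Usp18 and Herc6 thus lay above that median and Uba7 and Ube2l6 below it. Of the genes that carry the interferon signal, Irf7, which amplifies it, was at 78.7 and 612 CPM (2.96) and Stat2 at 9.90 and 53.7 CPM (2.44), while Irf9 (0.69), Ifnar1 (0.38), Ifnar2 (0.36) and Jak1 (0.32) stayed under 2-fold. Irf7, Stat2 and Irf9 also belong to the 40 interferon-stimulated genes.

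Among 9 type I interferon genes, Ifnb1 had 2 UMIs in the control library and 100 in the mutant one (log2 ratio 5.96, 4.07 to 9.02), Ifnk 2 and 0, and the other 7 had 0 in both. The Ifnb1 UMIs came from 1 control cell and 32 mutant cells. In those 32 cells Isg15 was at 5922 CPM (5744 to 6104) and Usp18 at 600 CPM (544 to 659), against 645 and 85.1 CPM in the other 5631 mutant cells. Ube2l6, at 245 against 123 CPM, differed less between these cells. Without the cells holding an Ifnb1 UMI, the log2 ratio between the libraries was 2.02 for Isg15 and 2.07 for Usp18. The ratio thus did not rest on the UMIs of those cells, and any effect of them on other cells was not tested.

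Higher Isg15 in the mutant library was spread over its cells. For a common depth each cell with at least 5000 UMIs was thinned at random to 5000, which left 6101 control and 5312 mutant cells and set aside 168 and 351 shallower ones. An Isg15 UMI was then seen in 39.4% (38.2 to 40.6) of control and 85.9% (84.9 to 86.8) of mutant cells, a difference of 46.5 percentage points (44.9 to 48.0). Unthinned, the shares were 73.8% and 95.9%. At least 3 UMIs were seen in 8.98% and 48.7% of thinned cells. Every cell type can make Isg15 under interferon, so these cultures hold no cell type from which a background of free RNA could be read, and shares of cells with a UMI are not shares of cells expressing the gene.

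The medians were 0 and 2 Isg15 UMIs per thinned cell, and the 95th percentiles 4 and 9. The distributions overlapped: 17.6% of control cells reached the mutant median, 14.1% of mutant cells had no Isg15 UMI, and 24.3% of mutant cells lay above the control 95th percentile. The variance over the mean was 3.71 and 7.13, where counting alone gives about 1. Where it exceeds 1 this ratio rises with the mean, so the 2 values do not compare the spread of the libraries. The 1% of cells with the most Isg15 held 13.8% of its UMIs in the control library and 10.9% in the mutant one, a share that sparse counts raise by themselves, since it was 20.6% and 12.7% for the far sparser Uba7.

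**Figure D3:**
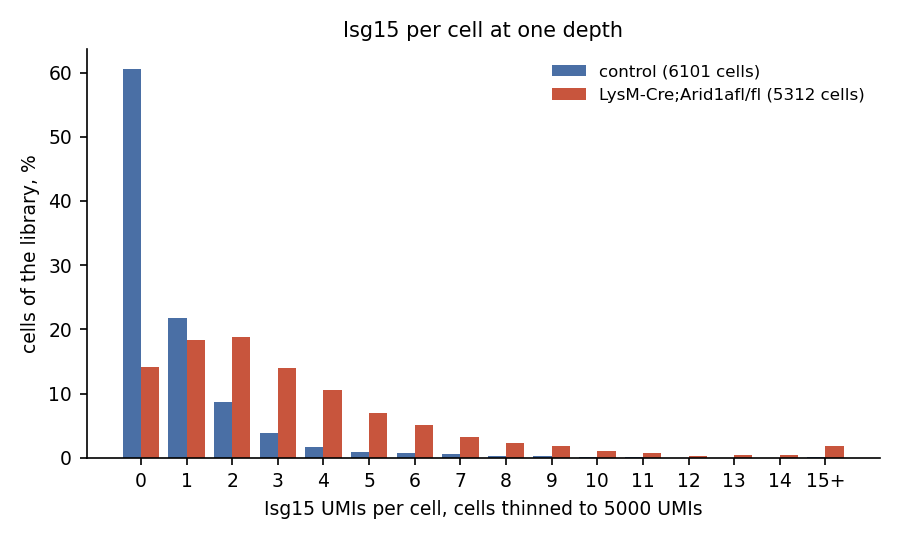
Share of cells (%) by the number of Isg15 UMIs per cell after thinning to 5000 UMIs, for 6101 control and 5312 LysM-Cre;Arid1afl/fl cells, with 15 or more in the last bars. The control peaks at 0, with 60.6% of its cells, against 14.1% of the mutant cells.

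Transcripts of the enzymes were sparse at this depth. In the control library Ube2l6 was seen in 19.6% of thinned cells, Usp18 in 9.08%, Herc6 in 6.51% and Uba7 in 6.23%. In the mutant library the shares were 46.6%, 31.9%, 20.7% and 15.4%. At least 1 of the 5 members was missing from nearly every cell: all 5 were seen together in 3 control cells and 49 mutant cells (0.922%). No member at all was seen in 43.4% of control and 5.18% of mutant cells. Their variance over the mean ran from 1.05 to 1.42, which is not comparable with that of Isg15, since the ratio nears 1 for any sparse gene.

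Cells were next divided by the marker genes with which the study names its states. The OC gate takes at least 3 UMIs per thinned cell over Ctsk, Mmp9, Acp5 and Dcstamp, and the cycling gate at least 3 over Mki67, Top2a, Aurka and Cdk1. Cells were in the OC gate alone (343 control, 121 mutant), in both (248 and 52), in the cycling gate alone (2135 and 1668) or in neither (3347 and 3342). A gate is a range of counts, and 298 control and 247 mutant cells were 1 UMI short of the OC gate. Before the other gates were applied, 166 of 593 control and 77 of 176 mutant cells in it held exactly 3 UMIs. Its genes also differed unequally over all cells. Acp5 was at 105 and 69.0 CPM, Ctsk at 57.0 and 20.5, Dcstamp at 11.8 and 2.30 and Mmp9 at 58.0 and 6.05. Cells with neutrophil or class II markers were kept apart, and a stromal gate held 3 cells in each library and was not compared.

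Over these 4 states, Isg15 in the control library was lower where OC or cycling markers were expressed. It was at 192 CPM in cells in neither gate, 148 in the OC gate, 127 in the cycling gate and 109 in both. In the mutant library the order changed. Isg15 was at 956 CPM in the OC gate, 698 in neither, 626 in both and 609 in the cycling gate. The log2 ratio between the libraries was therefore 2.69 (2.60 to 2.78) in the OC gate against 1.86 (1.83 to 1.89) in neither, a difference of 0.83 (0.74 to 0.93) beyond counting error. It was 2.52 (2.38 to 2.65) in both gates and 2.26 (2.22 to 2.30) in the cycling gate.

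Usp18 showed the same pattern more widely. In the control OC gate it had 98 UMIs, or 9.58 CPM, which stood to the level in neither at a log2 ratio of -1.32 (-1.63 to -1.03), and in the mutant library it was at 102 CPM in the OC gate and 88.9 CPM in neither. Between the libraries its log2 ratio was 3.41 (3.08 to 3.76) in the OC gate and 1.89 in neither, a difference of 1.52 (1.18 to 1.88). Herc6 was at 10.6 and 67.8 CPM in the OC gate, a ratio of 2.68 (2.34 to 3.04) against 1.74 (1.65 to 1.84) in neither. The modifier, the ligase and the protease were thus lower in cells in the OC gate alone than in neither-gate cells of the control, and higher in those of the mutant library. Cells in both gates did not share the latter. In the mutant library they stood to neither at -0.16 (-0.25 to -0.07) for Isg15, 0.001 (-0.35 to 0.33) for Herc6 and -0.59 (-0.90 to -0.30) for Usp18. The share of thinned mutant cells with an Isg15 UMI was also alike, 86.8% (79.4 to 92.2) in the OC gate alone and 86.0% (84.8 to 87.2) in neither.

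The E2 did not share that change, and for the E1 it was undecided. Ube2l6 was at 62.8 CPM in the control OC gate against 46.3 in neither, and at 153 against 125 CPM in the mutant library, so it was higher in the OC gate in both. Its log2 ratio was 1.29 (1.11 to 1.47) in the OC gate and 1.44 (1.38 to 1.49) in neither, and the interval of the difference, -0.34 to 0.04, includes 0. Uba7 was at 14.6 and 45.1 CPM in the OC gate and at 13.4 and 32.2 in neither. The interval of its difference between those states, -0.0044 to 0.73, also includes 0.

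**Figure D4:**
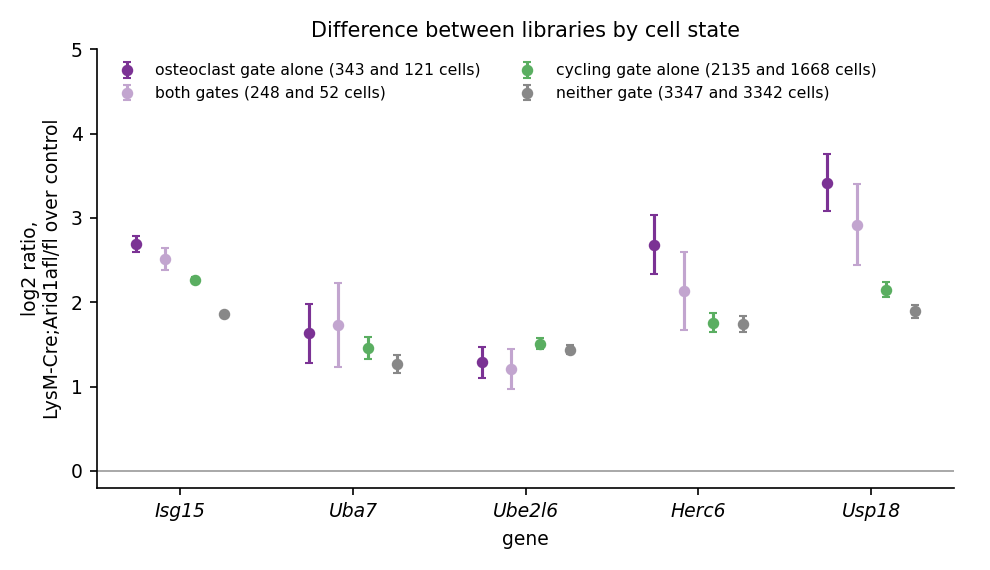
Log2 ratio of LysM-Cre;Arid1afl/fl over control for each member in 4 cell states that do not overlap, with 95% exact conditional intervals for counting error. With gates of at least 3 UMIs, Isg15, Herc6 and Usp18 have their highest value in the OC gate alone (2.69, 2.68 and 3.41), while Ube2l6 lies between 1.21 and 1.51 in all 4 states.

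All 5 members passed 2-fold higher in each of these 4 states. The shares of genes that did so, at a mean of 20 CPM in the state, were 9.37% in the OC gate and 8.40% in both gates. They were 5.39% in the cycling gate and 4.81% in neither. Uba7 and Herc6 reached that mean only through the mutant library in each of the 4 states, and Usp18 in all but neither. Uba7, Herc6 and Usp18 were at 14.6, 10.6 and 9.58 CPM in the control OC gate. In the OC gate, monocytic markers were at 4035 and 5344 CPM and the OC markers themselves at 1644 and 996 CPM, neutrophil markers at 5.28 and 49.1 CPM and class II markers at 35.2 and 81.2 CPM, so the gated cells of the libraries differ in more than genotype, and the part of this in the ratios was not tested. With at least 5 UMIs in place of 3, the OC gate kept 249 and 57 cells and the log2 ratio was 3.20 for Isg15, 4.19 for Usp18 and 2.89 for Herc6. Both gates then held 88 and 11 cells, with Herc6 higher, at 3.09, and Uba7 at 1.05 (-0.27 to 2.18). In the gate of 3 UMIs, weighting each cell alike gave 2.72 for Isg15 and 3.57 for Usp18.

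Cells with class II transcripts, a mark of antigen presentation, had the highest Isg15 in both libraries, 605 CPM (490 to 739) in 9 control cells against 1528 CPM (1444 to 1615) for the 61 mutant ones (log2 ratio 1.34, 1.04 to 1.65). Neutrophil-gate cells had the lowest, with 11 UMIs or 58.0 CPM in 19 control cells against 333 CPM for the 89 mutant ones (2.52, 1.67 to 3.54). Not all members passed 2-fold there. In the class II gate, where 11.1% of genes did so, Usp18 (2.61, 1.22 to 4.51) and Ube2l6 (1.14, 0.29 to 2.13) passed beside Isg15, while Herc6 was at 0.66 (-0.40 to 1.93) and Uba7 at -0.13 (-1.33 to 1.29). In the neutrophil gate, where 10.1% of genes did so, Uba7 was at 0.57 (-0.91 to 2.52), and Ube2l6, Herc6 and Usp18 passed on 1 control UMI each. These last genes reached a mean of 20 CPM there only through the mutant library. With the neutrophil, stromal and class II gates left out, the ratio over all cells was 2.06 for Isg15, and the 4 enzymes lay from 1.36 to 2.10.

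Within the mutant library, 554 thinned cells with an Arid1a UMI had Isg15 at 681 CPM (650 to 712) and 4758 without one had 704 CPM (693 to 715), intervals that overlap. Ube2l6 was at 148 CPM (134 to 163) and 133 CPM (128 to 137). A cell without a UMI can still express Arid1a at this depth, and a 3′ UMI does not tell an intact from a recombined transcript.

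Lastly, Isg15 was related to its enzymes over cells of 1 library. Pearson's r of log2(UMIs + 1) in thinned cells was 0.23 for Usp18, 0.17 for Herc6, 0.14 for Ube2l6 and 0.065 for Uba7 in the control (6101 cells), and 0.22, 0.16, 0.15 and 0.11 in the mutant library (5312 cells). In counts this sparse such values are weak, the points share a library and a depth, and no relation is read from them. For scale, the median r of Isg15 with 5038 other control genes of at least 20 CPM was -0.0055 and with 5302 mutant genes -0.0071. Herc6 and Uba7 were under 20 CPM in the control, so they are not among those 5038 genes. The 99th percentiles of r were 0.13 and 0.18, which Usp18, Herc6 and Ube2l6 exceeded in the control and Usp18 in the mutant library. The highest were those of Ifit1 (0.38 and 0.36) and Ifit3 (0.38 and 0.35), antiviral effectors that bind foreign RNA, and Ifit3 has a near-identical copy, Ifit3b. Irf7, Cxcl10, Rsad2, Ifi211, Ifi204, Mndal, Ifi203 and Bst2 followed in the control. Ifit1bl1, Isg20, Gbp2, Ifit2, Rsad2, Ms4a4c, Ifitm3 and Cst3 followed in the mutant library. The lists of 10 shared 3 genes, Ifit1, Ifit3 and Rsad2.

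Summing over cells gives the levels themselves. Cells were binned by their Isg15 UMIs in the thinned counts, the Isg15 level of each bin was then measured on the UMIs that thinning had set aside, and the enzymes on all UMIs of the same cells. In the control library the bins ran from 73.0 CPM of Isg15 in cells with 0 thinned UMIs to 1546 CPM in 61 cells with 8 to 15. Over that range Usp18 ran from 12.2 to 163 CPM, Herc6 from 9.83 to 81.5, Ube2l6 from 39.1 to 121 and Uba7 from 10.1 to 37.3. In the mutant library the bins ran from 281 CPM of Isg15 at 0 to 4936 CPM in 91 cells with 16 or more, and Usp18 from 56.9 to 436 CPM, Herc6 from 32.6 to 197, Ube2l6 from 93.8 to 246 and Uba7 from 22.1 to 115. All 4 enzymes were thus higher in each higher bin of either library. Uba1, the E1 of ubiquitin, ran only from 107 to 119 CPM over the same control bins and from 124 to 147 in the mutant library. Other interferon targets rose too, so the rise was not particular to the enzymes. Irf7 ran from 49.0 to 526 CPM in the control and from 521 to 1491 in the mutant library. Stat2 ran from 7.90 to 28.3 and from 46.9 to 161, and Trim25 from 66.9 to 131 and from 96.8 to 212. Irf9 rose less, from 30.6 to 53.2 and from 49.6 to 66.6.

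Cells of the libraries with about the same Isg15 could be compared in bins 4 to 7 and 8 to 15. At 4 to 7 thinned UMIs, Isg15 was at 727 CPM in 246 control and 815 CPM in 1370 mutant cells (log2 ratio 0.16, 0.11 to 0.21). Usp18 was at 77.8 and 98.5 CPM (0.34, 0.20 to 0.48) and Herc6 at 45.9 and 52.6 CPM (0.20, 0.02 to 0.38). Ube2l6, at 89.8 and 135 CPM (0.59, 0.47 to 0.72), and Uba7, at 24.7 and 37.0 CPM (0.59, 0.35 to 0.83), remained further apart.

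At 8 to 15 thinned UMIs, with 61 control and 388 mutant cells, Isg15 was at 1546 and 1472 CPM (-0.07, -0.14 to 0.003). Herc6 was at 81.5 and 81.2 CPM (-0.01, -0.29 to 0.29) and Usp18 at 163 and 133 CPM (-0.29, -0.49 to -0.08), so the protease was lower in the mutant cells. Ube2l6 was still higher in them, at 121 and 182 CPM (0.59, 0.37 to 0.83), and for Uba7, at 37.3 and 48.4 CPM, the interval of the ratio (-0.03 to 0.81) includes 0. At like Isg15 levels, Ube2l6 was thus higher in the mutant library in both bins, while Usp18 was higher in one and lower in the other. This was not particular to the E2. In bins 4 to 7 and 8 to 15, Irf7 was at 1.37 and 0.60 and Stat2 at 1.26 and 1.24, while Trim25 was at 0.14 and -0.21. Above 15 thinned UMIs the control had only 5 cells. There Isg15 was at -0.09 (-0.21 to 0.03), Usp18 at 0.53 (0.08 to 1.02), Uba7 at 1.42 (0.27 to 2.88), Herc6 at 0.60 (-0.08 to 1.37) and Ube2l6 at 0.10 (-0.42 to 0.66), so the order of the enzymes was not the same. In the lowest bin, in contrast, the libraries did not match, with Isg15 at 73.0 and 281 CPM and all 4 enzymes higher in the mutant cells, from 1.13 for Uba7 to 2.22 for Usp18 on the log2 scale.

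**Figure D5:**
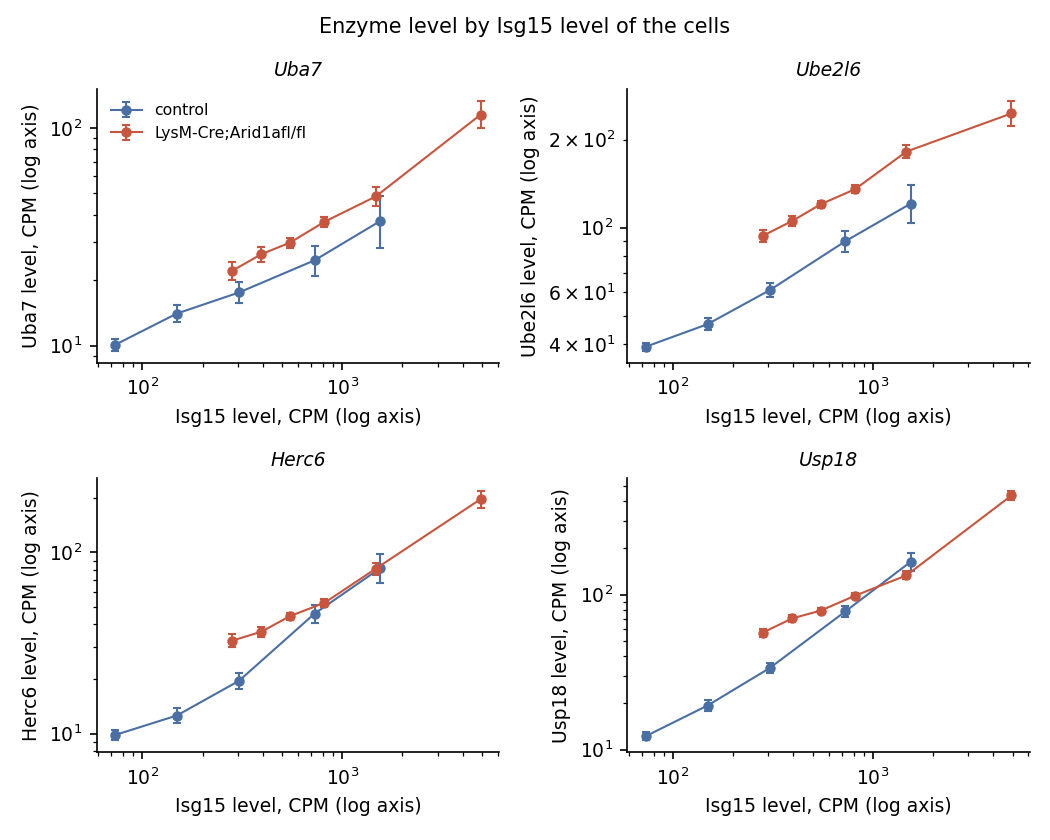
Level of each enzyme against the Isg15 level of the same cells, both in CPM on log axes, for cells binned by thinned Isg15 UMIs (0, 1, 2 to 3, 4 to 7, 8 to 15 and, in the mutant library, 16 or more). Bars are 95% exact Poisson intervals, and where Isg15 is at 1546 and 1472 CPM the control and mutant points are at 81.5 and 81.2 CPM for Herc6, 163 and 133 for Usp18 and 121 and 182 for Ube2l6.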

How the data were processed

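The files deposited by the authors hold unnormalized UMI counts for each gene in each barcode (10x Genomics 3′ v3.1 kit). The headers name Cell Ranger 6.1.0, and GRCm39 is named in the submitters' processing notes. PCR copies are collapsed in such counts, and reads come from the 3′ ends of transcripts. Whether the depth of the libraries was equalized, or doublets were removed, was not given in the sources used here. From these counts, levels were the UMIs of a gene summed over the cells of a group and scaled to their total (CPM), with exact Poisson intervals, exact conditional intervals for log2 ratios, Clopper-Pearson intervals for shares, and square-and-add for differences. The group of each library was its genotype label. With 1 library per genotype no test was run. Doublet-like barcodes (333 control, 275 mutant, scored against simulated doublets) were kept, since the rule for the cells names no such filter, and removed as an alternative. Cells in the neutrophil gate had at least 1% of their UMIs in S100a8, S100a9, Camp, Ngp and Ltf, those in the stromal gate 0.1% in Col1a1, Col1a2, Col3a1, Sparc and Dcn, and those in the class II gate 0.2% in Cd74, H2-Aa, H2-Ab1 and H2-Eb1. Genes named in the text are the members, genes of the lists, Arid1a, and the 10 genes with the highest r with Isg15 in each library, to which genes overlapping a member were added after their values were seen. The members and lists were chosen with earlier results of these data known. The ratio, its interval and r were tested on simulated data. Other cell filters, scalings, weights, depths and gates were tried. Python 3.11.15, numpy 2.4.6, scipy 1.17.1, pandas 2.3.3 and scikit-learn 1.9.0 were used. A gene of the interferon signalling list is not reported here.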

Additional observations from a re-analysis of the deposited data

How the results depend on the processing

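No result changed direction under any alternative tried. No paired analysis was possible because each genotype had 1 library, for which reason none could be left out either. Median-of-ratios scaling put Isg15 at a log2 ratio of 2.05 in place of 2.07. With totals that leave out mitochondrial and ribosomal protein genes, which moves the median of all genes from 0.022 to -0.085, the values were 1.96 for Isg15, 1.25 for Uba7, 1.31 for Ube2l6, 1.70 for Herc6, 2.00 for Usp18 and 1.51 for the median of the enzymes. With equal weight per cell, Uba7 was at 1.44, Ube2l6 at 1.48 and the median of the enzymes at 1.67. The difference in the share of cells with an Isg15 UMI was 41.5 percentage points at 2000 UMIs, 39.1 at 10000, 22.04 without thinning and 39.7 for at least 3 UMIs. With gates of at least 5 UMIs, Isg15 was at 3.20 in the OC gate, 3.02 in both gates, 2.38 in the cycling gate and 1.92 in neither, and without Mki67 in the cycling gate it was at 1.92 in neither. At 10000 UMIs the median r of Isg15 with the enzymes was 0.21 (control) and 0.24 (mutant), in place of 0.15 and 0.16 at 5000, so r depends on depth. The remaining settings were chosen after seeing the data: without cells holding an Ifnb1 UMI, Isg15 was at 2.02 over all cells and 1.82 in neither gate, and with equal weight per cell it was at 1.92 in neither gate. Without a minimum level, Ifnb1, Ifit3b and Gbp3 were added to the genes past 2-fold higher in the pathway and interferon lists and Ube2e2 to those lower. Depth limits Uba7 and Herc6 most, at 402 and 439 UMIs over all thinned control cells, and the OC gate of the mutant library, with 121 cells.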

Other observations

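Barcodes left out by the filters on genes and mitochondrial UMIs (186 control and 202 mutant) held Isg15 at 67.4 CPM (44.0 to 98.7) and 415 CPM (348 to 491), from 26 and 137 UMIs. Both values lie below those of the kept cells, 161 and 674 CPM, and the log2 ratio between the libraries was 2.62 (2.01 to 3.29).

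The make-up of the pathway's transcripts differed between the libraries. Isg15 made up 63.3% of the UMIs of the 5 members in the control library and 69.8% in the mutant one, and Ube2l6 18.2% and 12.8%. Thinned control cells with an Arid1a UMI (1323 cells) had Isg15 at 158 CPM (149 to 168), against 169 CPM (163 to 174) in the 4778 cells without one.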
